A study of Rattus norvegicus with 96 samples.

Results

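Receptors for neurotransmitters were followed across 3 brain regions of nicotine-treated and saline-treated rats. The set held 51 genes of the 17637 in the count table: every ionotropic and metabotropic glutamate, GABA, glycine, muscarinic, serotonin, adrenergic, histamine, opioid, neuropeptide Y and somatostatin receptor gene, and 1 gene for an NMDA receptor-associated protein, that the study's gene tables name. Those tables name 7964 genes in all. They list genes at an unadjusted threshold for nicotine sensitization (SST) in these same rats and for self-administration (SA), and at an adjusted threshold for allelic imbalance. The methods describe the handling of the SA rats apart from these, though a passage of the study's text calls the SST and SA rats the same set. Of the 51 genes, 35 came from SST tables, 27 from SA or allele tables and 11 from both kinds. The choice therefore used the nicotine contrasts, whose values are given for the SST-listed genes as a description, and did not use region or sex, which were tested.

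RNA was sequenced from hand-dissected ventral tegmental area (VTA), nucleus accumbens (NAc) core and shell of the same NAc from 32 F1 rats, 16 of each sex, bred from the inbred strains F344 and BN in both directions of the cross. Rats received either nicotine (NIC, 0.4 mg/kg of base) or saline (SAL) once a day for 4 days, and per the labels the tissue was taken on day 17, so every group had been injected and none was naive. The 12 groups of region, sex and treatment held 8 libraries each, 1 per rat, except male VTA SAL and female NAc core NIC with 7 in the 94 libraries used. VTA values come from 31 of the rats, since no VTA library of male SAL 3 was analysed here and male SAL 5 had a pair of VTA libraries, of which 1 was used. Totals ran from 15868529 to 27736905 counts per library, and all 51 genes passed the count filter. Tissue pieces hold many cell types, so fewer cells of a type and less RNA per cell cannot be told apart in any value that follows.

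The VTA holds the dopaminergic neurons that project to the NAc, where most neurons are GABAergic striatal projection neurons carrying dopamine, glutamate, acetylcholine and serotonin receptors. Ionotropic receptors are channels that glutamate, GABA or glycine opens directly, and their subunit mix sets the speed and strength of the response. Metabotropic receptors act through G proteins on slower second messengers and include the muscarinic, most serotonin, adrenergic, histamine, opioid and somatostatin receptors. Nicotine itself acts on nicotinic acetylcholine receptors, which the gene set leaves out, so these genes stand for the transmitter systems around the dopaminergic neurons and their targets.

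The labelled regions were checked on marker genes, summed in CPM, counts scaled to a common library total. The 6 dopaminergic markers reached a median of 2053 CPM in VTA against 69.2 in the core and 29.2 in the shell of the NAc. The 8 striatal markers reached a median of 3821 CPM in core, 2864 in shell and 374 in VTA. Library 2 of female VTA NIC stood apart with a dopaminergic sum of 99.0 CPM and a choroid plexus sum of 2686 CPM. Library 1 of male NAc core SAL and library 1 of male NAc shell SAL stood apart with striatal sums of 575 and 421 CPM. Another library, replicate 1 of female NAc core NIC, carried a dopaminergic sum of 1047 CPM and was not among the 94. Results that rest on the 3 libraries that stood apart are given with and without them.

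The sequences upstream of 5 genes with large region differences are shown because their levels, described next, did not overlap between VTA and NAc core, nor for Gabrd, Chrm4 and Adra2c between VTA and NAc shell. Other genes with an entry, Hrh3 and Grik5 among them, separated the regions as well. For 37 of the 51 genes RefSeq gave a start site on build GRCr8, and each run below covers the 250 bases before it, read 5′ to 3′ on the strand of the gene. Grin3a (ENSRNOG00000005723) lies at chr5:69001559-69001808 on the minus strand, Gabrd (ENSRNOG00000016385) at chr5:171252710-171252959 on the minus strand, Chrm1 (ENSRNOG00000018385) at chr1:214996109-214996358 on the plus strand, Chrm4 (ENSRNOG00000017556) at chr3:98348830-98349079 on the plus strand and Adra2c (ENSRNOG00000009299) at chr14:79697477-79697726 on the minus strand. Capitals mark GGGCGG, the GC box, and TGACG, the core of the cAMP response element, on either strand.
Grin3a: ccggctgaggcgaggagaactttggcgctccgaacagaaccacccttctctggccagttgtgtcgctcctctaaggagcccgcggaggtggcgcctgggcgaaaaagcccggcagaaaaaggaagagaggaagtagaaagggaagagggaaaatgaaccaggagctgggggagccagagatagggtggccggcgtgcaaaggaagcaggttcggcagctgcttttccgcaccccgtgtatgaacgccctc
Gabrd: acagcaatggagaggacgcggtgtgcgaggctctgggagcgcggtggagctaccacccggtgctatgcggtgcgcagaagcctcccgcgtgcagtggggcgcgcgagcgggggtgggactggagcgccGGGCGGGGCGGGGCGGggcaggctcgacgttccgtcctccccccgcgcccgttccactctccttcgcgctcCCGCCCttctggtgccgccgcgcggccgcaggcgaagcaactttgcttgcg
Chrm1: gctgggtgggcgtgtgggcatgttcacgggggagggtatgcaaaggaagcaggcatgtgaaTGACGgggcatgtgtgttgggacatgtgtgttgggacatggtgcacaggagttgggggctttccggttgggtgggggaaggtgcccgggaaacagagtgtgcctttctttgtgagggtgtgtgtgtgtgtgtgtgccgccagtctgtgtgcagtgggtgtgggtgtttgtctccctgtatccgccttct
Chrm4: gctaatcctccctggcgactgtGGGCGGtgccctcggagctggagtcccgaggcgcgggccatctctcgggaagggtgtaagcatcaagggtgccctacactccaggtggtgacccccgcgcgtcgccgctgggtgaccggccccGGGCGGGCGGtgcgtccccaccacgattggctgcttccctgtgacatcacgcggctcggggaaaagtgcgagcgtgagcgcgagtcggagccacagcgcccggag
Adra2c: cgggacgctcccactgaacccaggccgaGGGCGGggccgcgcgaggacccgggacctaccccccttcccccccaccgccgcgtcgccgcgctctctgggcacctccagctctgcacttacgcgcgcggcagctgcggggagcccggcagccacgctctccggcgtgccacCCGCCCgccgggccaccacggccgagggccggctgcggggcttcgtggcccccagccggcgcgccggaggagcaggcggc

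Gabrd, Chrm4 and Adra2c, all low in VTA, carried 4, 3 and 2 copies of GGGCGG in these windows, some of them overlapping. Chrm1, also low in VTA, carried none but 1 copy of TGACG, and Grin3a, high in VTA, carried neither. GGGCGG was found in 18 of the 37 promoters (48.6%) against 30.5% of the 33469 promoters in the table, and TGACG in 8 (21.6%) against 18.2%. The full TGACGTCA occurred before Sstr2 alone (1 of 37), against 1.59% of all promoters. Of the promoters of genes higher in VTA than NAc core, 5 of 9 held GGGCGG, and of those higher in NAc core 11 of 21. The median GC content was 61.2% for the 37 promoters and 51.2% for all. These counts describe letters in a window and not bound sites. Adrb3, Glra1, Gria1, Gria2, Gria3, Grin2a, Grin2b, Grina, Grm4 and Oprl1 were among the genes with no entry.

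Between VTA and NAc core 42 of the 51 genes differed, 14 higher and 28 lower in VTA (edgeR quasi-likelihood test, Benjamini-Hochberg adjusted p under 0.05 over 16879 genes). Among all tested genes 81.6% differed, 41.3% higher and 40.3% lower in VTA, so the share of receptor genes called was near the background while their split leaned to NAc. The median difference was -0.22 on the log2 scale (VTA minus NAc core) against 0.01 over all genes, and the median size of the difference was 0.77 against 0.41. Against NAc shell 46 of the 51 genes differed, 17 higher and 29 lower in VTA. Of all genes 80.8% differed there, 40.5% higher and 40.4% lower in VTA, and the median size was 0.66 against 0.39. Both comparisons share the VTA libraries. Without the 3 libraries that stood apart 44 genes differed from NAc core, against 81.8% of all genes, and 45 from NAc shell, against 80.9%. Of the 12 ionotropic glutamate receptor genes 10 were lower in VTA than in NAc core, while the 12 GABA and glycine receptor genes were split 6 higher and 5 lower.

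**Figure D1:**
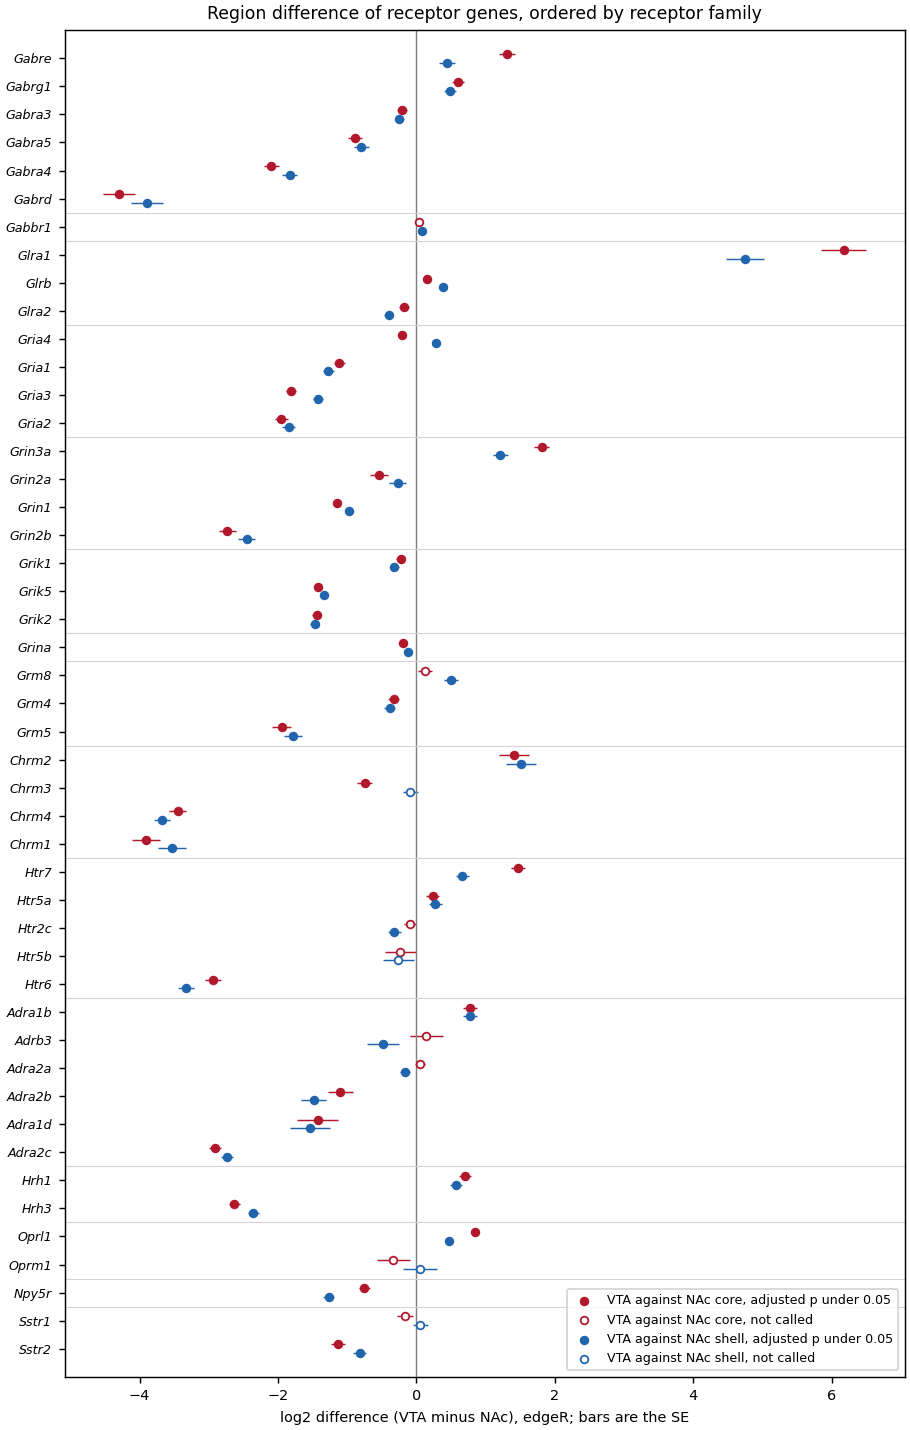
Log2 difference of VTA from NAc core (red) and from NAc shell (blue) for the genes reported by name, in blocks by receptor family, with bars for the SE of the edgeR fit and open points for genes not called. Glra1 reached 6.17 against NAc core and Gabrd -4.30, and the 28 genes called lower in VTA than NAc core lie left of 0.

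GABA and glycine receptor genes differed in both directions between VTA and NAc core, and all but Gabbr1 were called. Glra1, the glycine receptor alpha subunit of adult spinal cord and brainstem, ranged from 0.878 CPM through a median of 2.94 to 6.88 in VTA. In NAc core it was at 0 in 18 of 31 libraries and reached at most 0.438 CPM, and in NAc shell it was at 0 in 12 of 32 and reached at most 0.58. Every VTA library therefore lay above every NAc library. The fitted difference from NAc core was 6.17 (SE 0.33, adjusted p = 6.46e-30), a value that rests on few reads in NAc. The other glycine receptor genes differed by little, Glrb, the anchoring beta subunit, by 0.15 (SE 0.05, adjusted p = 0.00336) and Glra2, the alpha subunit of immature neurons, by -0.18 (SE 0.07, adjusted p = 0.0132).

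Gabrd encodes the delta subunit of extrasynaptic GABA-A receptors, which carry tonic inhibition. It ran from 0.626 through 2.39 to 25.8 CPM in VTA, from 82.9 through 96.5 to 127 CPM in NAc core and from 36.0 through 79.0 to 98.3 CPM in NAc shell. No VTA library reached the lowest NAc library, although 3 VTA libraries, NIC 2 and SAL 12 of females and NIC 13 of males, lay at 24.3 to 25.8 CPM. Gabrd was 19.6-fold higher in NAc core (log2 -4.30 for VTA, SE 0.23, adjusted p = 8.14e-31). Gabra4, an alpha subunit that pairs with delta in forebrain neurons, had medians of 34.2, 162 and 141 CPM in VTA, core and shell and a difference from core of -2.10 (SE 0.11, adjusted p = 5.06e-32). Gabra5, another extrasynaptic alpha subunit, differed by -0.89 (SE 0.11, adjusted p = 3.15e-12).

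Other GABA-A subunits were higher in VTA than in NAc core. Gabre, the little-studied epsilon subunit, had medians of 7.77 CPM in VTA and 3.17 in NAc core and differed by 1.31 (SE 0.12, adjusted p = 9.70e-18). Its ranges overlapped, since the lowest VTA library held 4.78 CPM and the highest NAc core library 6.48. Gabrg1, a gamma subunit, was 0.60 higher (SE 0.08, adjusted p = 5.62e-10). Gabra3 was lower in VTA by a small amount (-0.21, SE 0.07). Gabbr1, a subunit of the metabotropic GABA-B receptor, had a difference from NAc core of 0.03 (SE 0.02, adjusted p = 0.184) and was not called. Without the 3 libraries that stood apart it was called, at 0.05 (SE 0.02, adjusted p = 0.0456).

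Of the ionotropic glutamate receptor genes all 12 differed between VTA and NAc core, and 10 of them were lower in VTA. Grin3a, which was higher in VTA, encodes an NMDA receptor subunit that lowers calcium entry. It ran from 7.22 through 10.4 to 14.8 CPM in VTA, from 1.41 through 2.79 to 5.86 CPM in NAc core and from 2.64 through 4.40 to 9.24 CPM in NAc shell. The VTA libraries lay above every core library and overlapped with the shell, where library 6 of male SAL held the 9.24 CPM. The fold over NAc core was 3.51 (log2 1.81, SE 0.11, adjusted p = 1.58e-27).

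The other NMDA subunits went the opposite way. Grin2b, a subunit that binds glutamate and gives slow currents, had medians of 3.88, 28.0 and 22.1 CPM in VTA, core and shell. Its highest VTA library, at 14.4 CPM, lay under the lowest core library, at 17.0. The difference from core was -2.73 (SE 0.12, adjusted p = 3.68e-36). Grin1, the obligatory subunit, was lower in VTA by less (-1.14, SE 0.04), and Grin2a by -0.54 (SE 0.13).

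AMPA and kainate receptor genes were each called lower in VTA than in NAc core, 4 of 4 and 3 of 3. Gria2, the subunit that makes AMPA receptors impermeable to calcium, had medians of 93.8, 374 and 372 CPM in VTA, core and shell, and differed from core by -1.95 (SE 0.10, adjusted p = 1.06e-33). Its VTA range reached 311 CPM, the value of library 2 of female NIC, which put it over the lowest core library at 273. Without the 3 libraries that stood apart the highest VTA value was 231 CPM and the ranges of VTA and core no longer overlapped. Gria3 differed by -1.81 (SE 0.08, adjusted p = 1.52e-37), Gria1 by -1.11 (SE 0.08) and Gria4 by only -0.20 (SE 0.06). The kainate subunits Grik2 and Grik5 differed by -1.44 and -1.42 (SE 0.06 and 0.05) and Grik1 by -0.22 (SE 0.06). Grina, which encodes the NMDA receptor-associated protein and no channel subunit, differed by -0.19 (SE 0.03).

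Among metabotropic glutamate receptors 2 of 4 differed from NAc core, both lower in VTA. Grm5, a postsynaptic receptor that raises calcium, had medians of 3.03, 12.2 and 10.7 CPM in VTA, core and shell and a difference of -1.95 (SE 0.13, adjusted p = 2.41e-24). Grm4, a presynaptic receptor, differed by -0.33 (SE 0.08, adjusted p = 0.000164). Grm8, also presynaptic, differed by 0.12 (SE 0.10, adjusted p = 0.258) and was not called.

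Muscarinic receptors differed widely from each other. Chrm1, which acts through calcium and is typical of forebrain projection neurons, ran from 0.443 through 1.63 to 30.9 CPM in VTA, from 36.4 through 51.4 to 65.1 CPM in NAc core and from 19.8 through 38.0 to 66.0 CPM in NAc shell. Its highest VTA value was again library 2 of female NIC, without which the highest was 10.1 CPM. Chrm1 was 15.0-fold higher in NAc core (log2 -3.90, SE 0.21, adjusted p = 1.66e-31). Chrm4, an inhibitory receptor of striatal projection neurons, had VTA libraries at 2.96 to 20.3 CPM with a median of 9.96, and NAc core libraries at 57.4 to 164 CPM with a median of 114. Its groups did not overlap, and its fold was 10.9 (log2 -3.45, SE 0.12, adjusted p = 1.63e-44).

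Chrm2, the inhibitory autoreceptor of cholinergic neurons, was the muscarinic gene that was higher in VTA. It ran from 0.293 through 1.98 to 9.05 CPM in VTA and from 0.307 through 0.830 to 2.07 CPM in NAc core, with overlap, and differed by 1.41 (SE 0.22, adjusted p = 1.49e-08). Chrm3, which like Chrm1 acts through calcium, was lower in VTA than core by -0.75 (SE 0.10, adjusted p = 5.99e-10), with medians of 19.4 and 36.0 CPM.

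Serotonin receptors were divided in the same manner. Htr7, which raises cyclic AMP, ran from 10.1 through 18.2 to 24.8 CPM in VTA and from 3.09 through 6.36 to 10.5 CPM in NAc core, and differed by 1.47 (SE 0.10, adjusted p = 9.65e-25). The ranges touched only between 10.1 and 10.5 CPM. Htr6, which also raises cyclic AMP and is abundant in striatum, ran from 0.475 through 1.14 to 1.72 CPM in VTA and from 3.06 through 8.36 to 17.2 CPM in NAc core, without overlap. It was 7.68-fold higher in core (log2 -2.94, SE 0.12, adjusted p = 2.14e-40). Htr5a differed by 0.24 (SE 0.09, adjusted p = 0.0186), while Htr2c, at medians of 133, 149 and 172 CPM, was not called against core (-0.09, SE 0.09, adjusted p = 0.361). Htr5b had medians of 0.819 and 1.38 CPM in VTA and core, but library 2 of female VTA NIC held 16.9 CPM, and the VTA mean of 1.48 CPM lay above the core mean. Its difference of -0.23 (SE 0.22, adjusted p = 0.333) was not called with that library, and became -0.57 (SE 0.18, adjusted p = 0.00346) and called without the libraries that stood apart. With a block for the animal it was -0.53 (SE 0.21, adjusted p = 0.0181), also called.

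Adrenergic and histamine receptors each held genes that went opposite ways. Adra2c, an inhibitory alpha receptor of striatal neurons, had VTA libraries at 5.40 to 18.8 CPM with a median of 9.37 and NAc core libraries at 40.6 to 99.3 CPM with a median of 74.2. The groups did not overlap, and the difference was -2.91 (SE 0.09, adjusted p = 4.94e-49). Adra1d and Adra2b were lower in VTA by -1.43 and -1.10 (SE 0.29 and 0.18, adjusted p = 7.28e-06 and 7.76e-08). Adra1b, an excitatory alpha receptor, was 0.77 higher in VTA (SE 0.10, adjusted p = 1.84e-10), with medians of 12.7 and 7.65 CPM. Adra2a and Adrb3 differed from core by 0.06 and 0.15 (SE 0.07 and 0.24, adjusted p = 0.479 and 0.575) and were not called.

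Hrh3, the inhibitory histamine receptor that is dense in striatum, ran from 19.9 through 32.9 to 59.9 CPM in VTA and from 163 through 216 to 309 CPM in NAc core, without overlap. The difference was -2.63 (SE 0.09, adjusted p = 2.58e-46). Hrh1, the excitatory histamine receptor, was 0.70 higher in VTA (SE 0.09, adjusted p = 1.51e-11), at medians of 4.87 and 3.11 CPM.

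Of the 5 opioid, neuropeptide Y and somatostatin receptor genes 3 differed from NAc core. Oprl1, the nociceptin receptor, had medians of 32.9, 18.9 and 23.7 CPM in VTA, core and shell and was 0.84 higher in VTA than core (SE 0.06, adjusted p = 1.49e-23). Sstr2 and Npy5r, receptors for somatostatin and neuropeptide Y that lower cyclic AMP, were lower in VTA by -1.13 and -0.75 (SE 0.10 and 0.08, adjusted p = 3.58e-18 and 4.62e-15). Oprm1, the mu opioid receptor, stayed between 0 and 1.04 CPM in all libraries, so that its difference of -0.33 (SE 0.24, adjusted p = 0.203) rests on few reads, and Sstr1 differed by -0.17 (SE 0.11, adjusted p = 0.168).

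Counted by library, 11 of the 51 genes had VTA and NAc core ranges that did not overlap, against 9.89% of all tested genes. Glra1 and Grin3a lay above, and Adra2c, Chrm1, Chrm4, Gabrd, Gria3, Grik5, Grin2b, Hrh3 and Htr6 lay below. Between VTA and NAc shell the number was 8, against 6.58% of all genes, with Glra1 above and Adra2c, Chrm4, Gabrd, Grik2, Grik5, Hrh3 and Htr6 below. Without the 3 libraries that stood apart the numbers were 15 (13.7% of all genes) and 14 (10.5%). Library 2 of female VTA NIC was the highest VTA library for 21 of the 51 genes.

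**Figure D2:**
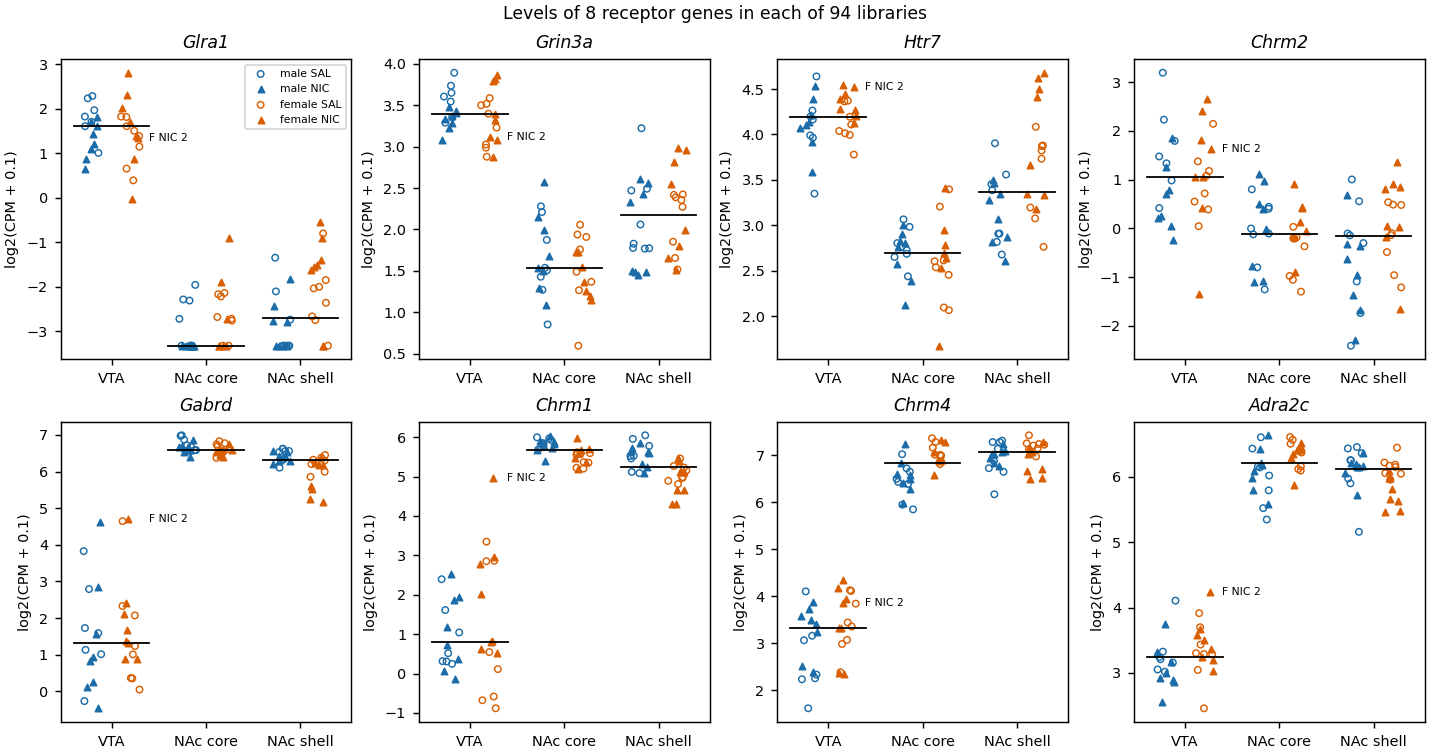
Level of 8 genes in each of the 94 libraries, on a log2 axis of CPM plus a pseudocount of 0.1, by region, with open circles for SAL, filled triangles for NIC, blue for males, orange for females and a line at the median of each region. The VTA points of Glra1 and Grin3a lie above all NAc core points and those of Gabrd, Chrm1, Chrm4 and Adra2c below, and library 2 of female VTA NIC is marked F NIC 2.

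Between the core and the shell of the NAc the differences were smaller, with 23 of the 51 genes called, 12 higher in core and 11 higher in shell, against 32.3% of all genes (15.8% and 16.5%). The median size was 0.22 on the log2 scale against 0.10 over all genes, and no gene had ranges that did not overlap (0.0118% of all genes). Among the called genes Chrm3 was the one most in favour of the core, with medians of 36.0 and 21.2 CPM and a difference of 0.66 (SE 0.10, adjusted p = 1.97e-07). The AMPA subunits Gria4 and Gria3 followed among called genes with 0.49 and 0.39 (SE 0.06 and 0.07, adjusted p = 8.12e-12 and 1.87e-05), then Grm8, a presynaptic glutamate receptor, with 0.38 (SE 0.10, adjusted p = 0.00229). Of the 12 ionotropic glutamate genes 5 were higher in core and 1, Grin3a, in shell (-0.60, SE 0.11, adjusted p = 6.15e-06).

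Toward the shell the 4 largest called differences were those of Glra1, Gabre, Htr7 and Adrb3. Htr7 had medians of 6.36 CPM in core and 10.2 in shell and differed by -0.81 (SE 0.10, adjusted p = 1.05e-10), and Gabre had 3.17 and 4.89 CPM and differed by -0.87 (SE 0.12, adjusted p = 3.17e-09). Glra1 differed by -1.42 (SE 0.45, adjusted p = 0.00975) on counts near 0, and Adrb3, a beta receptor at medians of 0.526 and 0.838 CPM, by -0.63 (SE 0.23, adjusted p = 0.0290). All 3 serotonin genes and both adrenergic genes called here were higher in shell. In saline rats alone 14 of the 51 genes were called between core and shell, against 21.3% of all genes, and Htr2c, Adra2a, Adrb3 and Glra1 were among those no longer called. Without the libraries that stood apart 27 were called, against 34.3% of all genes.

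Auxiliary, scaffold and G protein genes of these receptors were counted from a list of 60 genes, of which 40 had a name in the study's tables and were tested under 41 identifiers, Gnas having a pair of them. Between VTA and NAc core 38 of the 41 differed, 11 higher and 27 lower in VTA, against 81.6% of all genes (41.3% and 40.3%). Cacng3, an AMPA receptor auxiliary subunit, was lower by -2.29 (SE 0.06, adjusted p = 1.24e-50), and Homer1, a scaffold that binds Grm5, by -1.96 (SE 0.10, adjusted p = 4.15e-31). Rgs9, a striatal brake on G protein signalling, was lower by -5.31 (SE 0.20, adjusted p = 3.20e-41). Shisa6, another AMPA receptor auxiliary protein, was higher in VTA by 2.65 (SE 0.17, adjusted p = 1.26e-26). Between core and shell 20 of the 41 were called, 18 of them higher in core, against 32.3% of all genes, 15.8% higher in core.

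Sex was compared in each region on its own, in a fit that also held treatment. All male libraries came from one box and all female from another, and the prep batches hardly crossed, so sex, box and prep batch cannot be told apart. In VTA 1 of the 51 genes, Gria2, was called by edgeR, against 2.33% of all genes (0.824% higher and 1.50% lower in males), and 3 by DESeq2, against 4.55% of all genes. Gria2 ran from 45.5 through 79.3 to 110 CPM in males and from 52.1 through 115 to 311 CPM in females, with wide overlap, and differed by -0.77 (males minus females, SE 0.18, adjusted p = 0.0190). Without library 2 of female VTA NIC the difference was -0.63 (adjusted p = 0.0376), in saline rats alone -0.68 (adjusted p = 0.303) and with prep batch as a term -1.34 (SE 0.47, adjusted p = 0.252), and neither of these was called. At an unadjusted p under 0.05, 16 of the 51 genes passed, each lower in males, against 19.0% of all genes, 10.3% lower in males. Without that library 12 passed, 11 lower and 1 higher in males, against 16.1% of all genes, 8.02% lower. Sstr2 and Adra1d, next by p, differed by -0.45 and -1.35 (SE 0.13 and 0.45, adjusted p = 0.0533 and 0.103) and were not called. Without that library they differed by -0.34 and -0.81 (SE 0.10 and 0.37, adjusted p = 0.0736 and 0.271).

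In NAc core 25 of the 51 genes differed between the sexes, 15 higher and 10 lower in males, against 32.9% of all genes (15.5% and 17.5%), and the median size was 0.26 against 0.14. Of the adrenergic alpha receptor genes Adra1d, Adra1b and Adra2a were called higher in males, Adra2c was called lower (-0.26, SE 0.10, adjusted p = 0.0464) and Adra2b was not called. The Adra2c call was lost without the library that stood apart (-0.22, SE 0.10, adjusted p = 0.0788), and also with DESeq2 size factors, no count filter, saline rats alone, all mapped libraries or without the 2 male core libraries lowest in striatal markers. Adra1d, an excitatory alpha receptor of cortex and hippocampus, ran from 2.39 through 20.4 to 39.4 CPM in males and from 1.48 through 5.95 to 10.8 CPM in females, a difference of 1.69 (SE 0.31, adjusted p = 0.000119). Adra1b ran from 3.81 through 11.1 to 17.6 CPM in males and from 2.33 through 5.58 to 8.13 CPM in females, a difference of 1.03 (SE 0.16, adjusted p = 2.46e-05). Both pairs of ranges overlapped, and in both genes the highest male library was library 1 of SAL, which stood apart. Chrm3 had medians of 51.1 and 25.6 CPM and a difference of 0.89 (SE 0.14, adjusted p = 3.02e-05).

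The somatostatin receptors Sstr1 and Sstr2 were higher in males by 0.88 and 0.59 (SE 0.18 and 0.14, adjusted p = 0.000377 and 0.00198), and Oprl1 by 0.45 (SE 0.10, adjusted p = 0.000921). Lower in males were Chrm4 by -0.52 (SE 0.10, adjusted p = 0.000321), Grik2 by -0.46 (SE 0.09, adjusted p = 0.000180), Gabra4 by -0.37 (SE 0.08, adjusted p = 0.000858) Gria2 by -0.31 (SE 0.08, adjusted p = 0.00217) and Htr2c by -0.48 (SE 0.11, adjusted p = 0.00141). Chrm4 ran from 57.4 through 90.3 to 151 CPM in males and from 94.9 through 128 to 164 CPM in females.

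Medians of cell type markers also differed between the sexes in NAc core, with ranges that overlapped. Nrgn, a marker of cortical projection neurons that striatal neurons also express and the 1 of that list with a name, had a median of 2586 CPM in males (1075 to 3344) and 1891 in females (1364 to 2862). The 8 striatal markers summed to a median of 2953 CPM in males (575 to 4729) and 4508 in females (2906 to 6727), and the 3 cholinergic markers to 14.5 CPM (1.87 to 26.5) and 29.3 CPM (14.8 to 55.4). None of these sums was at 0 in any library, and their part in the result was not tested. Without the 2 male core libraries lowest in striatal markers 19 of the 51 genes were called, against 28.3% of all genes. All 19 were among the 25, with Adra1d at 1.54, Adra1b at 0.93, Chrm3 at 0.85 and Chrm4 at -0.44. With all mapped libraries, which adds replicate 1 of female NIC, 15 genes were called, against 26.1% of all genes. Of the 25 genes 14 stayed called, and Chrm4, Gabra4 and Gria2 were among those that did not. In saline rats alone 20 of the 51 genes were called, against 25.7% of all genes. Of the 25 genes 18 stayed called there, without Gria2. No prep batch held core libraries of both sexes.

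**Figure D3:**
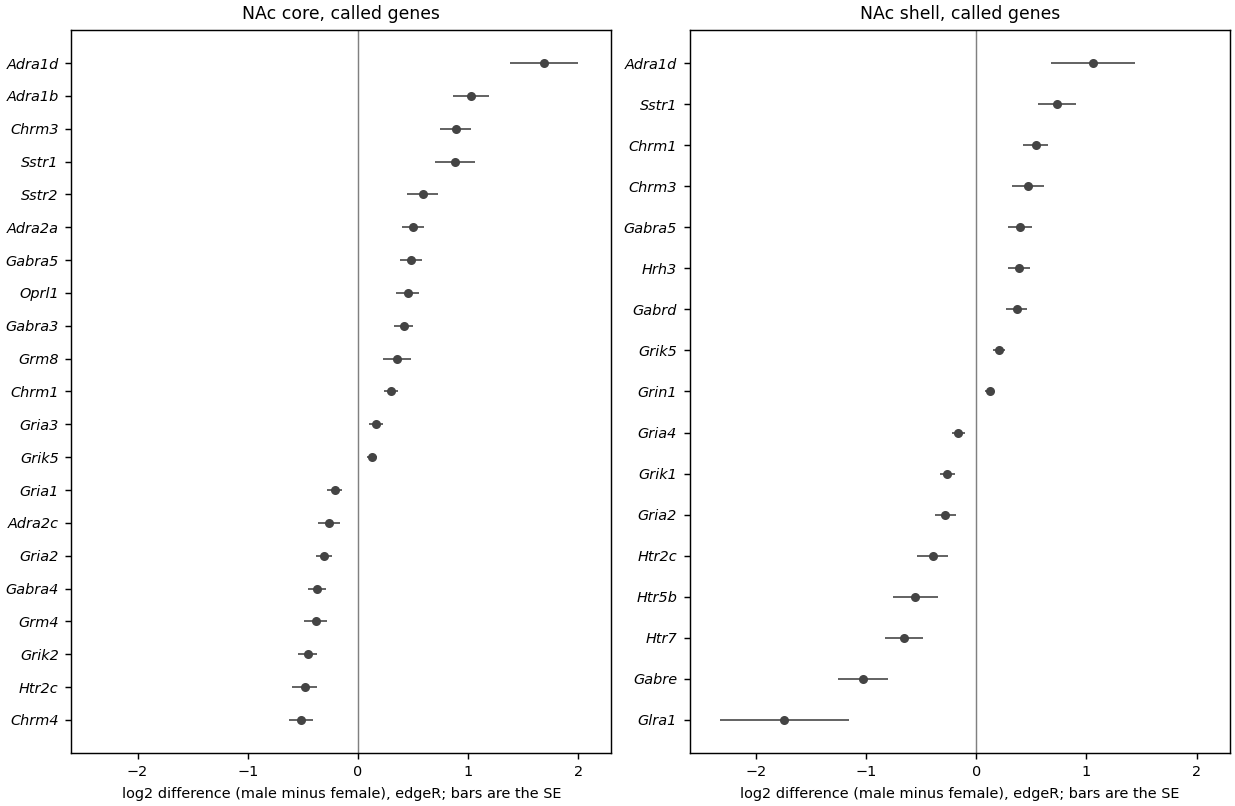
Log2 difference of males from females, with bars for the SE of the edgeR fit, for the genes reported by name that were called in NAc core (left) and NAc shell (right). Adra1d heads both panels, at 1.69 and 1.06, although in shell it was 0.77 and not called without the library that stood apart, and points right of 0 are genes higher in males.

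In NAc shell 18 of the 51 genes differed between the sexes, 9 in each direction, against 21.0% of all genes (10.9% higher and 10.1% lower in males). Chrm1 ran from 33.8 through 47.3 to 66.0 CPM in males and from 19.8 through 33.1 to 44.6 CPM in females, a difference of 0.54 (SE 0.11, adjusted p = 0.00105). Gabre was higher in females, at 4.14 through 7.01 to 18.3 CPM against 2.56 through 3.45 to 8.49 in males, a difference of -1.03 (SE 0.23, adjusted p = 0.00192). Both pairs of ranges overlapped. Nrgn had a median of 1186 CPM in males (729 to 2919) and 670 in females (351 to 1291), and its part was not tested.

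The shell calls depended on the libraries and terms in the fit. In saline rats alone 0 of the 51 genes were called by edgeR, with 2.57% of all genes called. With prep batch as a term 0 were called, with 0.0474% of all genes called. The shared batch held 1 male and 1 female shell library, and the cause of the lost calls was not tested. In both core and shell 9 genes were called, among them Adra1d, Chrm1, Chrm3, Gabra5, Gria2, Grik5, Htr2c and Sstr1, all 9 in the same direction in both. Among all tested genes 14.1% were called in both, 99.5% of these in the same direction, and core and shell came from the same rats. A further 16 were called in core and 9 in shell, and the difference between core and shell in these was not tested. Library 1 of male SAL, which stood apart in shell, held 59.7 CPM of Adra1d. Without it 17 of the 51 genes were called in shell, against 18.4% of all genes. Of the 18 genes called with it 15 stayed called, while Adra1d (0.77, SE 0.35, adjusted p = 0.129), Grin1 and Htr5b did not, and Adra2c and Oprl1 were called in addition.

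The nicotine contrasts chose 35 of the genes, so their values are set out here without a test. Among all 16879 genes none passed an adjusted p under 0.05 in any of the 6 comparisons by edgeR fitted within each. Over the 6 together DESeq2 called 22, edgeR with all 12 groups in one fit 9 and edgeR with prep batch as a term 1. None of these was a receptor gene of the SA and allele tables. At an unadjusted p under 0.05 edgeR passed 5.62%, 9.83% and 2.46% of genes in VTA, core and shell of males, and 9.24%, 6.45% and 10.1% in those of females. NIC and SAL libraries shared 1 prep batch in each comparison except female VTA, where they shared 2, so treatment and prep batch are nearly confounded here. With prep batch as a term, 12 of 29 differences of named genes moved by less than the SE of the reported difference, 14 by more and 3 turned.

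The male VTA table named 12 of the 51 genes, and all 12 were lower with NIC, by a median of -0.42 on the log2 scale. Chrm2 ran from 0.752 through 1.31 to 3.52 CPM in the 8 NIC rats and from 1.24 through 2.68 to 9.05 CPM in the 7 SAL rats, a difference of -1.18 (SE 0.40). Htr5b, a little-studied serotonin receptor, ran from 0.295 through 0.550 to 0.673 CPM with NIC and from 0.457 through 0.987 to 1.55 CPM with SAL, a difference of -0.88 (SE 0.28). Both pairs overlapped, and the highest Chrm2 value belonged to library 1 of SAL. Grm8, at medians of 9.21 and 11.3 CPM, differed by -0.71 (SE 0.25), and Glra1, Grm5, Grin2a, Grik1, Chrm3, Grin3a and Gabrg1 by -0.52 to -0.22. Library 1 of SAL was also the highest of all VTA libraries for Grm8, Grik1 and Grin3a, at 36.7, 24.9 and 14.8 CPM. No fit left that library out.

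The female VTA table named 9 of the genes, all 9 higher with NIC. Gria1 ran from 29.7 through 38.9 to 124 CPM with NIC and from 25.8 through 27.9 to 47.2 CPM with SAL, a difference of 0.62 (SE 0.27). The 124 CPM was library 2 of NIC, and without it the difference was 0.27 (SE 0.16). Sstr2 was at medians of 7.71 and 5.65 CPM and differed by 0.49 (SE 0.18), or 0.30 without that library. Gabre, in contrast, differed by 0.43 (SE 0.17) with it and 0.53 without. Htr2c differed by 0.36 (SE 0.11) with it and 0.29 without, at 123 through 164 to 221 CPM with NIC and 106 through 132 to 148 CPM with SAL. Chrm3 differed by 0.42 (SE 0.20) with it and 0.22 without, and Glra2, Oprl1, Htr7 and Gabbr1 by 0.11 to 0.36 with it.

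The same library set the largest female VTA differences of genes that the female VTA table did not name. Adra1d differed by 1.37 (SE 0.75) with it and 0.36 without, Htr5b by 1.35 (SE 0.77) with it and -0.08 without, and Chrm1 by 0.99 (SE 0.78) with it and 0.01 without. The 12 genes of the male VTA table had a female VTA median of 0.25 with 11 higher in NIC, where 42 of all 51 genes and 54.9% of all tested genes lay above 0. Without the library it was 0.19 with 10 higher, where 38 of the 51 and 52.9% of all tested genes lay above 0. With prep batch as a term it was 0.11 with 10 higher. The 9 genes of the female VTA table had a male VTA median of -0.01, with 3 higher and 6 lower in NIC, against 0.00 over all genes.

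In the NAc the listed genes went both ways. In male NAc core 4 of 5 were lower, led by Gria2 at -0.28 (SE 0.11), while Htr6 was 0.50 higher (SE 0.25), at medians of 8.32 and 7.09 CPM. Adrb3 was the single gene of the male NAc shell table, at 0.677 through 1.02 to 2.42 CPM with NIC and 0.2 through 0.686 to 1.11 CPM with SAL, a difference of 0.76 (SE 0.33). In female NAc core 3 of 5 were higher, with Chrm2 at 0.73 (SE 0.32) and Hrh1 at 0.42 (SE 0.16). Chrm2 was thus lower with NIC in male VTA and higher in female NAc core, and the difference was not tested.

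Female NAc shell had the longest list, 14 genes, 5 higher and 9 lower. Gabre ran from 4.42 through 10.9 to 18.3 CPM with NIC and from 4.14 through 7.01 to 8.35 CPM with SAL, a difference of 0.79 (SE 0.32), and Grm8 differed by 0.39 (SE 0.14). The lower genes included Htr6 at -0.38, Adra2c at -0.37, Gabrd at -0.34, Chrm4 at -0.31 and Hrh3 at -0.30 (SE 0.14, 0.09, 0.16, 0.10 and 0.15). Adra2c ran from 44.0 through 53.6 to 67.8 CPM with NIC and from 62.0 through 71.4 to 87.1 CPM with SAL, so that the ranges overlapped between 62.0 and 67.8.

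Gria2 was named by 3 tables and lower with NIC in each, by -0.28 (SE 0.11) in male NAc core, -0.27 (SE 0.10) in female NAc core and -0.16 (SE 0.08) in female NAc shell. Its NIC and SAL medians were 324 and 365 CPM in male core, 422 and 493.4 CPM in female core and 396 and 417 CPM in female shell. Chrm2, Chrm3, Gabbr1, Gabre, Glrb, Grm5, Grm8, Htr2c and Htr6 were each named by more than one SST table as well. Gabre and Glrb were higher in both tables that named them and Grm5 lower in both, and the others went opposite ways. With prep batch as a term Glrb turned to -0.0857 in female core and -0.0756 in female shell, and Grm5 in male VTA to 0.0381. Genes just inside and outside the tables' limit overlapped in size. Gabbr1 in male core at -0.04 (SE 0.04), Glrb in female core at 0.12 (SE 0.08) and Grm5 in female shell at -0.24 (SE 0.13) were named. Glra2 in female shell at 0.24 (SE 0.11) and Glra1 in male core at -3.17 (SE 1.23, on counts near 0) were not.

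**Figure D4:**
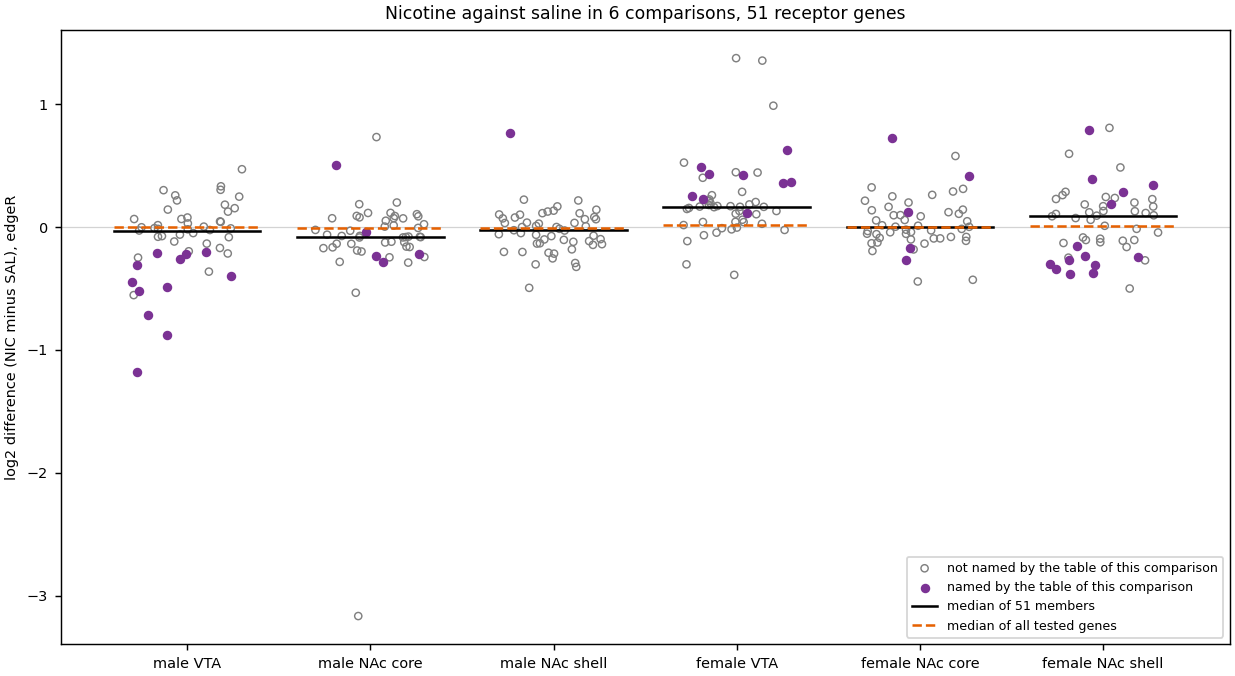
Log2 difference of NIC from SAL for the 51 genes in each of 6 comparisons, with filled points for genes that the SST table of that comparison named, open points for the others, a solid line at the median of the 51 and a dashed line at the median of all tested genes. In male VTA all 12 filled points lie below 0 and in female VTA all 9 above. The tables listed these genes on the same rats for a difference in either direction. The share of all listed genes in each direction is not given.

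The 27 genes that the SA or allele tables name were chosen on SA libraries, or on allelic counts, which are not among the libraries used here, and were tested here. Over the 6 comparisons they gave 162 pairs, of which 12 passed an unadjusted p under 0.05 (5 higher and 7 lower with NIC), which is 7.41% against 7.29% of all tested genes (3.55% higher and 3.74% lower). The split turned to 8 higher and 5 lower with prep batch as a term and to 8 higher and 3 lower with all 12 groups in one fit. None of the 162 passed by adjusted p, the lowest being 0.446 with edgeR's quasi-likelihood test. DESeq2 likewise passed 0 by adjusted p and 16 by unadjusted p, the latter against 7.50% of all tested genes. The 12 pairs fell on 9 genes, among them Htr2c, Grm8, Gria2, Gria3, Gria1, Gabra4, Grm5 and Hrh1. The smallest unadjusted p was 0.00400 for Htr2c in female VTA. Each of the 12 pairs was also named by the SST table of its own comparison, which used these rats.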

How the data were processed

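RNA from 3 brain regions of 32 rats was sequenced on a short-read instrument with paired ends. Per the submitters' processing notes and the study's methods, the authors trimmed reads with fastp 0.20.0, quantified them against the Rnor 6 transcriptome with Salmon 0.12.0 and summed transcripts to genes with tximport. The deposited table holds these estimated counts, given as whole numbers and not normalized. All 96 columns matched a label, and 0 columns were without one. The tests used the 94 libraries whose names stand in a clustering picture of the study, which leaves out R1 of male VTA SAL 5, from the same rat as R2, and replicate 1 of female NAc core NIC and gives no reason. Gene names came from the study's supplementary gene tables, whose fold changes and p-values were not used. Single values of a few genes of the set are not reported here, while counts cover all of them. The allele table was held in shortened form, so genes it names beyond that stretch may be missing.

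The analysis used edgeR 4.0.16 and limma 3.58.1 under R 4.3.3, and DESeq2 1.42.0 as an alternative. Figures were drawn in Python 3.11.15 with matplotlib 3.10.9. A gene was tested if 3 or more libraries held a normalized count over 10 (16879 of 17637). Region was tested in a fit of 12 groups, sex in each region on its own beside a term for treatment, and NIC against SAL within each sex and region, by edgeR's quasi-likelihood test with TMM normalization. Adjusted p-values are Benjamini-Hochberg over all tested genes, two-sided. CPM set every library to the same total, corrected with TMM factors, and all differences are log2 with the SE of the fit. Levels are not compared between genes, since no gene lengths were at hand. The tests were tested on simulated data.

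The genes, the gene lists and the rule for naming were chosen with earlier results of these data known. Named genes were, per receptor family, up to 3 with the largest called difference in each direction between VTA and NAc core, the 4 largest each way between core and shell, and the 3 with the smallest p for sex. For nicotine they were the 2 largest per SST table, those on more than one SST table, and SA or allele table genes with an unadjusted p under 0.05. Others are named with values where a count needed them and were then chosen after their values were seen. Alternatives were DESeq2's size factors or test, no count filter, all mapped libraries, a count of at least 10 in every library, leaving out 3 libraries that stood apart, a block for the animal, saline rats only and prep batch as a term. For the region comparisons, prep batch was added after seeing the data, as was leaving out 2 male core libraries low in striatal markers.

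Whether libraries with 1 animal number pair was checked on 14452 genes centred within groups. Since all 3 regions came from the same rat, the numbers pair the samples by design. The median correlation was 0.0542 between VTA and NAc core (30 rats), 0.0431 between VTA and NAc shell (31 rats) and 0.123 between core and shell (31 rats), against -0.0112, -0.00673 and -0.0168 for other rats of the same group. No libraries of 1 group agreed within sampling noise, with a lowest chi-square per gene of 5.66 to 12.8, so none were merged. Counting error is smallest for genes with many reads, and a gene below 1 CPM had few reads behind its difference.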

Additional observations from a re-analysis of the deposited data

Results flagged for a closer look

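Within the 12 groups, 13 of the genes named most were searched for a single library far from the others of its group, 156 gene and group pairs in all. Chance alone gives such a library in about 1 of 20 groups.

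Library 2 of female VTA NIC was far above its group for 6 genes, at 47.5 CPM of Adra1d, 18.8 of Adra2c, 30.9 of Chrm1, 25.8 of Gabrd, 311 of Gria2 and 16.9 of Htr5b. It is the library with a dopaminergic marker sum of 99.0 CPM and a choroid plexus sum of 2686 CPM, and the part of either in these values was not tested. Library 12 of female VTA SAL stood out for Gabrd at 24.9 CPM and Htr5b at 4.61 CPM, and library 16 of that group for Chrm2 at 4.33 CPM.

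In male VTA, library 1 of SAL stood out with 17.1 CPM of Adra2c and 9.05 CPM of Chrm2, and library 4 of SAL with 4.98 CPM of Adra1d and 17.1 CPM of Chrm4. Among male VTA NIC libraries, library 13 held 24.3 CPM of Gabrd and library 15 held 6.22 CPM of Adra1d.

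In NAc core, library 4 of male SAL stood out with 612 CPM of Gria2. Among female NIC core libraries, library 6 was low for Adra2c at 58.3 CPM, library 2 high for Gabre at 6.48 CPM and library 8 high for Glra1 at 0.438 CPM.

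In NAc shell, library 1 of male SAL, which also had few striatal markers, held 59.7 CPM of Adra1d. Library 6 of male SAL held 9.24 CPM of Grin3a and 0.293 CPM of Glra1, library 9 of male NIC held 1.50 CPM of Chrm2, library 11 of male NIC held 0.183 CPM of Glra1 and library 9 of female SAL held 0.473 CPM of Glra1. Those Glra1 values are a few reads each.

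The female NAc core NIC library that entered no comparison, replicate 1, held 4.96 CPM of Glra1 and 12.1 CPM of Grin3a. Both lie above every NAc core library used and within the VTA ranges of these genes.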

How the results depend on the processing

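The number of receptor genes called ran from 38 to 44 between VTA and NAc core over 9 alternatives, from 38 to 46 between VTA and NAc shell and from 14 to 27 between core and shell. Of all tested genes 75.9% to 85.8%, 74.4% to 85.3% and 21.3% to 37.0% were called. The lowest counts for VTA came with a count of at least 10 in every library, which left 43 of the 51 genes to test. With a block for the animal, which pairs the regions of a rat, the counts were 43, 46 and 24, against 81.6%, 80.9% and 32.3% of all genes. The block ended or turned no call of a named gene. Saline rats alone gave 14 between core and shell. For sex in VTA, DESeq2 called 3, no count filter 2, a count of at least 10 in every library 2, saline rats alone 0 and prep batch as a term 0. The shares of all genes were 4.55%, 2.27%, 3.29%, 0.255% and 0.0592%. For sex in NAc core all mapped libraries gave 15, and prep batch could not be fitted. For sex in NAc shell saline rats alone gave 0 and prep batch 0. For nicotine the 162 pairs (144 with a count of at least 10 in every library) gave 11 to 16 at an unadjusted p under 0.05, against 12 as reported. Of all tested genes 6.35% to 7.84% passed in these fits. With prep batch as a term 3 nicotine differences turned, Grm5 in male VTA to 0.0381, Glrb in female NAc core to -0.0857 and Glrb in female NAc shell to -0.0756. The cause of these changes was not tested. Of the other values of named genes under the alternatives, 323 region values kept their call and 3 lost it. Of the sex values 59 kept it, 4 gained it and 8 lost it. Without prep batch as a term 191 nicotine values moved by less than the SE of the reported difference and 6 by more. With prep batch as a term 12 moved by less and 14 by more.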
